A study of Salmo salar with 9 samples.

Results

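Thrombocyte and coagulation transcripts were followed in the head kidney of Atlantic salmon (Salmo salar), the main blood-forming organ of this fish. They were taken from a reference of 87600 contigs, the stretches of mRNA that the authors had assembled from all reads. A contig belonged to the set when its description held 1 of 13 words or names (among them Coagulation factor, Fibrinogen, von Willebrand factor, Platelet glycoprotein, Integrin alpha-IIb, Integrin beta-3, Thrombospondin, Prothrombin, Tissue factor, Antithrombin, Plasminogen and Proteinase-activated receptor) and when it had at least 20 counts over all fish. That gave 148 members among 87238 contigs with the same minimum. By role they were 36 thrombocyte receptors, 18 members of the clotting cascade, 23 of clot substrate and adhesion, 3 anticoagulants, 9 of fibrinolysis and 59 that carry 1 of the words in their name only. They fell under 36 gene names and had between 20 and 26323 counts each (median 248.5), and 14 of them had no count in at least 1 fish.

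The fish came in 3 diet groups of 3 fish each. The SW2 fish were fed a diet with the seaweed product Oceanfeed, the SW1 fish a diet with the brown seaweed Laminaria digitata and the FMC fish a fishmeal-based control diet, each for 42 days. Every fish, the controls included, was challenged with lipopolysaccharide (LPS), a bacterial cell wall component, before sampling, so that all values describe diets within challenged fish. Each library came from a single fish and held between 8259299 and 12228633 counts on the assembled contigs. Libraries of 1 diet lay further apart than counting noise allows (chi-square over its degrees of freedom between 5.38 and 34.4). Among SW2 fish, the pairs with fish 1 gave 32.7 and 34.4, and fish 2 with fish 3 gave 5.38. Hemoglobin contigs took 2.63% of the counts of FMC fish 2, against 0.149% to 0.711% in the other fish, with the next highest share in SW1 fish 1. In SW2 fish 1 a single contig, named after the yeast protein ART2, took 16.5% of the counts, against 0.395% to 1.44% in the other fish. Markers of B cells and of interrenal cells, cell types of head kidney, were found in every fish (4178 to 13089 CPM and 155 to 1249.6 CPM in sum, where CPM are counts scaled to 1000000 per library after TMM scaling). With 3 fish per diet, p-values measure the spread between these fish. A lower level of a transcript in a whole organ can come from fewer cells of a type or from less RNA per cell, and these cannot be told apart here.

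Thrombocytes are the nucleated blood cells of fish that do the work of mammalian platelets. They bind von Willebrand factor through a complex of glycoproteins Ib, V and IX, bind fibrinogen through the pair of integrin alpha-IIb and integrin beta-3, and sense thrombin through proteinase-activated receptors (roles known mainly from mammals). Clotting starts when tissue factor on cell surfaces meets plasma factors, and it ends with thrombin making fibrin that factor XIII cross-links. Antithrombin and tissue factor pathway inhibitors hold this cascade back, and plasmin, made from plasminogen by its activators, dissolves the clot. Most plasma clotting factors are made in the liver, whereas head kidney holds the blood cells and their precursors.

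No member differed between diets at an adjusted p under 0.05 (edgeR quasi-likelihood test, Benjamini-Hochberg adjustment over all contigs tested) in any of 4 comparisons. For SW1 vs. FMC this was 0 of 148 members, with 0.00343% of all contigs called, for SW2 vs. FMC 0 of 148 with 0% of all contigs called, for SW2 vs. SW1 0 of 148 with 0.00114% and for both seaweeds vs. FMC 0 of 148 with 0%. DESeq2 also called 0 members in each comparison. The contigs named outside the rule set for names (glycoprotein Ib, V and IX, receptor 1 to 3 contigs, further contigs of a gene, and the list genes) were chosen after their values were seen. Every fold change given from here on is therefore an estimate that did not pass the adjusted threshold, and unadjusted p-values are printed only to rank members.

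At an unadjusted p under 0.05, 12 members were higher in SW2 fish and 3 were higher in FMC fish in SW2 vs. FMC, which compares with 2.39% and 3.63% of all contigs in the same directions. DESeq2 put 9 and 3 members there, and 982 and 2022 of the 87309 contigs tested. Of the 12 in edgeR, 4 were contigs of the matrix protein SVEP1 and 1 of an ADAMTS protein, both name-only. Of the 3 in the other direction, 1 was an SVEP1 contig. With contigs summed per gene, 2 of 36 gene names were higher and 2 lower in SW2 fish. Of all 87197 entries in that fit, 2075 were higher and 3171 lower. In SW1 vs. FMC, 4 members were higher in SW1 fish and 0 were lower (1.03% and 0.649% of all contigs). DESeq2 gave 2 and 0 members there, and 534 and 350 of 87494 contigs. In SW2 vs. SW1, 3 were higher and 3 lower in SW2 fish (2.05% and 3.74% of all contigs). DESeq2 gave 2 and 1 members, and 1090 and 2468 of 87598 contigs. For both seaweeds vs. FMC the numbers were 5 and 3 (1.39% and 1.98% of all contigs). In DESeq2 they were 6 and 2, with 864 and 1163 of 87598 contigs.

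Members whose groups did not overlap were also counted. In SW2 vs. FMC, 18 members had all SW2 fish above all FMC fish and 3 had them below, with 5.69% and 6.03% of all contigs there. In SW1 vs. FMC the counts were 9 above and 5 below (2.92% and 2.62% of all contigs), and in SW2 vs. SW1 they were 12 above and 5 below (6.74% and 6.9%). Many of these were name-only members. In SW2 vs. SW1, the 12 above held 4 SVEP1, 4 von Willebrand factor A domain and 1 ADAMTS contigs, and the 5 below held 1 SVEP1 contig. In SW2 vs. FMC, the 18 above held 5 SVEP1, 1 von Willebrand factor A domain and 1 ADAMTS contigs. The 3 below were 2 SVEP1 contigs and 1 SERBP1 contig. All 6 seaweed fish were above all FMC fish in 4 members and below them in 0 (0.758% and 0.619%). Those 4 were contigs of integrin alpha-IIb, integrin beta-3, factor VIII and an ADAMTS protein with thrombospondin motifs.

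As a set, the members lay close to 0 on the log2 scale. Their median log2 fold change was 0.05 in SW1 vs. FMC (all contigs −0.01), 0.09 in SW2 vs. FMC (all contigs 0.00), 0.08 in SW2 vs. SW1 (all contigs −0.01) and 0.01 for both seaweeds vs. FMC (all contigs −0.02). The estimate was above 0 for 80, 88, 88 and 76 of the 148 members, against 48.3%, 50.3%, 49.5% and 47.9% of all contigs in the same comparisons. The median of SW1 vs. FMC was set by SW1 fish 1, since without that fish it was −0.13, and the plot of fold changes by role shows the spread around these medians.

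**Figure D1:**
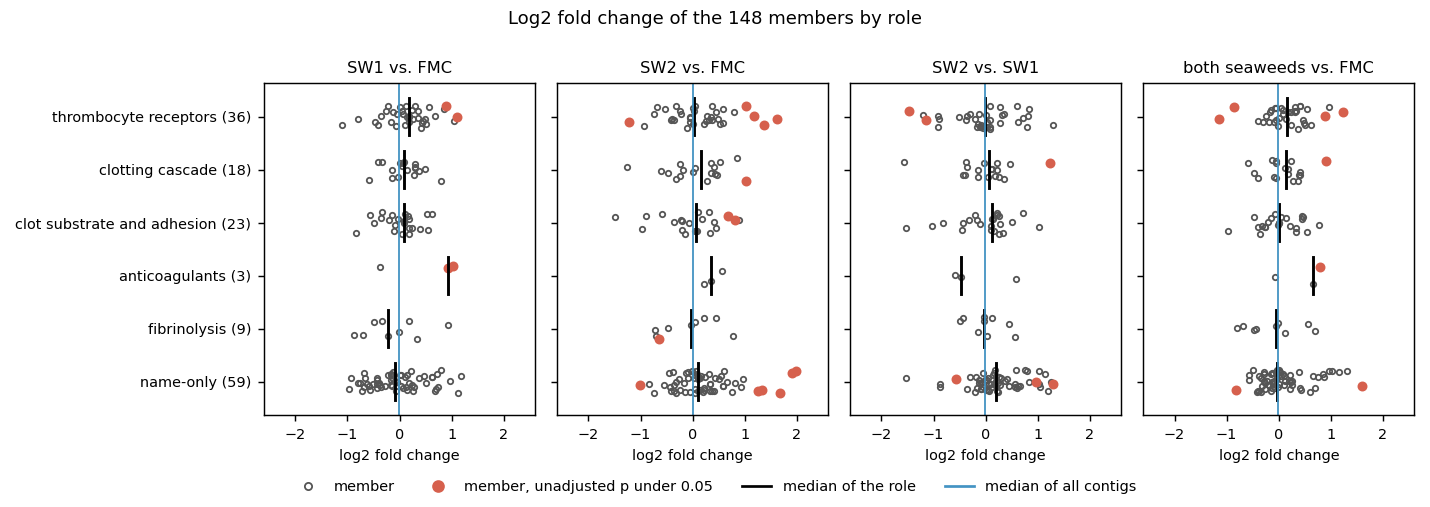
Log2 fold change (x axis) of each of the 148 members in the 4 comparisons, with members in rows by role and the number of members of each role in brackets. Open points are members, filled points are members with an unadjusted p under 0.05, the black bar is the median of the role and the blue line the median of all contigs. Role medians lie between −0.47 and 0.93, and the 2 largest in size belong to the anticoagulants, which have 3 contigs.

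Integrin alpha-IIb, the subunit that with beta-3 makes the fibrinogen receptor and that marks the thrombocyte lineage, had 5 contigs. Contigs of 1 gene name can be pieces of 1 transcript or copies from the duplicated salmon genome, and reads of near-identical copies may be split between them. Summed over its contigs, alpha-IIb stood at 22.5, 27.4 and 29.1 CPM in SW2 fish 1 to 3, at 29.1, 15.2 and 21.6 CPM in SW1 fish 1 to 3 and at 21.4, 21.2 and 20.3 CPM in FMC fish 1 to 3. The FMC fish were close to each other, all 3 SW2 fish lay above them, and the SW1 fish lay on both sides. The summed fold change was 0.33 on the log2 scale (SE 0.21, adjusted p = 0.890) in SW2 vs. FMC and 0.06 (SE 0.32, adjusted p = 1.00) in SW1 vs. FMC.

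A small alpha-IIb contig carried the lowest p of the thrombocyte receptors for both seaweeds. Contig 46183 had 2.39, 2.13 and 2.51 CPM in SW2 fish, 1.85, 1.47 and 2.44 CPM in SW1 fish and 0.582, 1.04 and 1.12 CPM in FMC fish. All 6 seaweed fish were above all 3 FMC fish. Its log2 fold change was 1.24 (SE 0.35, unadjusted p = 0.0029, adjusted p = 1.00) for both seaweeds vs. FMC, 1.38 (SE 0.37, adjusted p = 0.816) in SW2 vs. FMC and 1.09 (SE 0.44, adjusted p = 1.00) in SW1 vs. FMC. These comparisons share the FMC fish. The contig had 160 counts in all, and no other alpha-IIb contig had all 6 seaweed fish above all FMC fish. In SW2 vs. FMC, all 5 alpha-IIb contigs had an estimate above 0 (50.3% of all contigs), from 0.00 to 1.61 with a median of 0.26. Of these, 2 were higher at an unadjusted p under 0.05 (2.39% of all contigs). Contig 5337, with 892 counts, had 8.51, 10.7 and 11.3 CPM in SW2 fish, 12.6, 6.68 and 9.58 CPM in SW1 fish and 9.80, 9.36 and 6.17 CPM in FMC fish, so that the groups overlapped.

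Integrin beta-3, the partner of alpha-IIb that endothelial cells and macrophages also use in other pairs, had 4 contigs with unlike values. The most counted, contig 12650, had 46.6, 54.5 and 42.7 CPM in SW2 fish, 60.5, 31.0 and 44.8 CPM in SW1 fish and 53.1, 47.2 and 48.3 CPM in FMC fish, with the FMC values inside the range of both seaweed groups. Contig 44131 had 9.65, 19.3 and 10.8 CPM in SW2 fish, 10.9, 8.56 and 6.53 CPM in SW1 fish and 6.31, 6.59 and 4.60 CPM in FMC fish. Here the SW2 fish were all above the FMC fish, SW2 fish 2 by the most, and SW1 fish 3 lay inside the FMC range.

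For contig 44131 the log2 fold change of SW2 vs. FMC was 1.18 (SE 0.31, unadjusted p = 0.0028, adjusted p = 0.816), the lowest p of all members in that comparison. It stayed between 0.82 and 1.36 when single fish were left out. Contig 36756 was also above the FMC fish in all 6 seaweed fish, with 4.36, 6.18 and 4.92 CPM in SW2 fish, 4.39, 6.28 and 4.09 CPM in SW1 fish and 3.07, 3.93 and 3.37 CPM in FMC fish. Summed over the 4 contigs, beta-3 averaged 69.7 ± 13.5 CPM in SW2 fish, 61.1 ± 16.4 CPM in SW1 fish and 60.7 ± 3.23 CPM in FMC fish (SD, n = 3 each), so that the sum differed by less than the spread between fish.

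Endothelial markers were read beside integrin beta-3. Of 40 endothelial contigs (cadherin-5, the receptors of vascular endothelial growth factor and of angiopoietin-1, Tie-1 and the endothelial cell-selective adhesion molecule), 36 had a log2 fold change above 0 in SW2 vs. FMC (median 0.48), against 50.3% of all contigs, and 10 were higher in SW2 fish and 0 lower at an unadjusted p under 0.05, against 2.39% and 3.63% of all contigs. Their summed level was 209 to 240.2 CPM in SW2 fish, 170.3 to 238 CPM in SW1 fish and 139 to 185 CPM in FMC fish, and no contig was called after adjustment. Their part in the values of integrin beta-3 and of factor VIII was not tested.

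The glycoprotein Ib-V-IX complex, the receptor for von Willebrand factor, was represented by contigs for each of its 4 chains. Glycoprotein IX, contig 19288, had 6.85, 6.50 and 5.62 CPM in SW2 fish, 8.79, 8.16 and 3.83 CPM in SW1 fish and 5.32, 31.3 and 7.74 CPM in FMC fish. FMC fish 2 stood at 4.69 times the median of the other 8 fish, and the other FMC fish lay inside the seaweed range. Its log2 fold change was −1.15 (SE 0.44, unadjusted p = 0.021, adjusted p = 1.00) for both seaweeds vs. FMC and 0.03 without FMC fish 2.

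Glycoprotein Ib beta had a like pattern in 1 of its 2 contigs. Contig 6836 had 21.3, 27.8 and 25.0 CPM in SW2 fish, 30.8, 33.3 and 17.8 CPM in SW1 fish and 21.3, 91.2 and 28.6 CPM in FMC fish, and again only FMC fish 2 left the range of the others. Its log2 fold change for both seaweeds vs. FMC was −0.86 (SE 0.38, unadjusted p = 0.039, adjusted p = 1.00), and 0.06 without FMC fish 2. In contig 6093, FMC fish 2 was also the highest, with 26.9 CPM against 14.4 to 19.9 CPM in the other 8 fish.

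Glycoprotein Ib alpha and glycoprotein V did not follow FMC fish 2. Glycoprotein Ib alpha, the chain that contacts von Willebrand factor, had 4.67, 3.84 and 5.02 CPM in SW2 fish, 4.46, 1.07 and 1.83 CPM in SW1 fish and 3.24, 1.39 and 1.91 CPM in FMC fish. All SW2 fish were above all FMC fish, with a log2 fold change of 1.02 (SE 0.34, unadjusted p = 0.012, adjusted p = 0.816), while SW1 fish 1 was level with the SW2 fish. Glycoprotein V had 12.4, 17.2 and 13.2 CPM in SW2 fish, 18.1, 8.29 and 17.6 CPM in SW1 fish and 13.2, 12 and 16.8 CPM in FMC fish, which overlapped throughout.

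**Figure D2:**
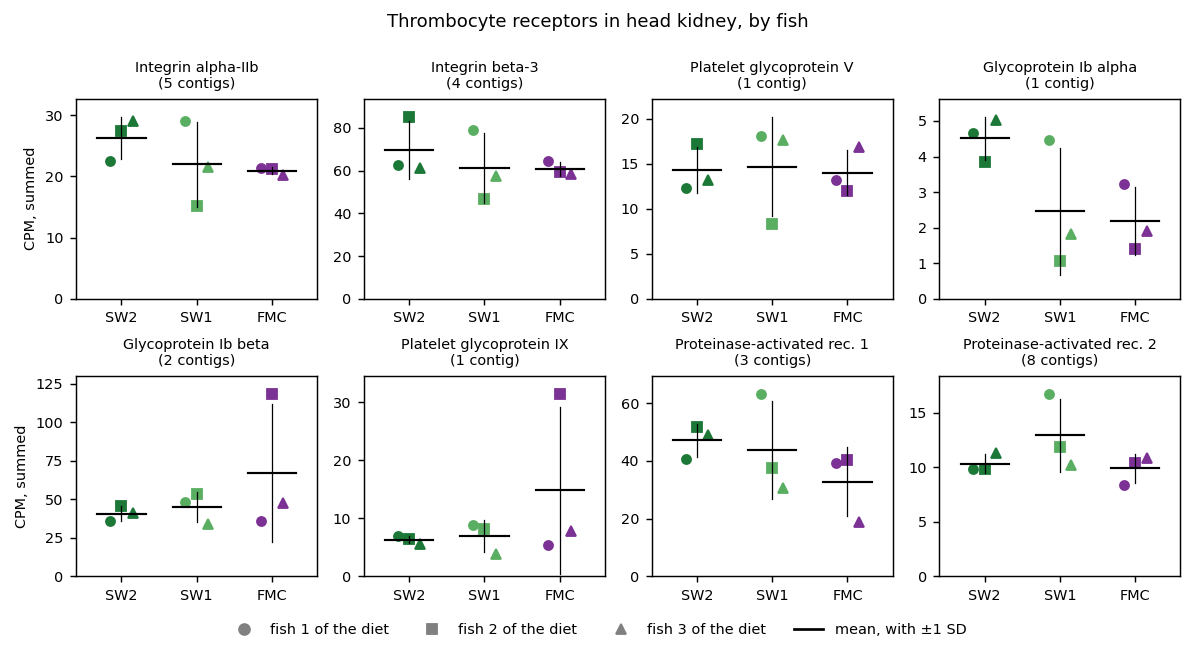
Level of 8 thrombocyte receptor genes in CPM, summed over the contigs of each gene (y axis, from 0, with a scale of its own in each panel), in the 3 fish of each diet (x axis). Points are fish, with 1 shape per fish number, and bars are the mean with 1 SD. Glycoprotein IX and Ib beta show FMC fish 2 far above the other fish, at 31.3 and 118 CPM, whereas in integrin alpha-IIb the 3 FMC fish lie between 20.3 and 21.4 CPM.

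Proteinase-activated receptors, which thrombin and related proteases switch on by cutting them, had 16 contigs. Receptor 1, the main thrombin receptor of human platelets, was read mostly through contig 9625, with 39.8, 50.0 and 47.8 CPM in SW2 fish, 62.1, 36.9 and 30.1 CPM in SW1 fish and 38.4, 39.3 and 17.8 CPM in FMC fish. The SW2 fish were all above the FMC fish, though SW2 fish 1 by little, and FMC fish 3 was the lowest of all. This gave a log2 fold change of 0.52 (SE 0.30, adjusted p = 0.864) in SW2 vs. FMC.

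Receptor 4, a slower thrombin receptor, gave the lowest p of all members in SW2 vs. SW1. Its contig 51627 had 1.66, 0.960 and 1.2 CPM in SW2 fish, 2.06, 3.48 and 3.05 CPM in SW1 fish and 1.99, 1.39 and 1.12 CPM in FMC fish. The SW1 fish were above every other fish, with a log2 fold change of −1.14 (SE 0.38, unadjusted p = 0.0092, adjusted p = 0.855) in SW2 vs. SW1 and 0.89 (SE 0.40, adjusted p = 1.00) in SW1 vs. FMC. Another receptor 4 contig, 72466, had the opposite order, at 1.76, 1.6 and 1.5 CPM in SW2 fish and 0.961, 1.07 and 0.784 CPM in SW1 fish, so that the 3 contigs of this receptor summed to 4.24 ± 0.461 CPM in SW2 fish and 5.12 ± 0.548 CPM in SW1 fish (SD, n = 3 each). Contig 51627 had 174 counts in all and contig 72466 had 110.

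Receptor 2, which trypsin-like proteases and the tissue factor complex activate, had 8 contigs, all with a log2 fold change above 0 in SW1 vs. FMC (median 0.40, with 48.3% of all contigs above 0) and 3 of 8 above 0 in SW2 vs. FMC (median −0.17, with 50.3%). Its contig 85126 was lower in all SW2 fish (0.104, 0.32 and 0.502 CPM) than in all SW1 fish (1.24, 0.535 and 0.784 CPM), as 6.9% of all contigs were. The log2 fold change was −1.47 (SE 0.65, unadjusted p = 0.040, adjusted p = 0.858). The contig had 52 counts in all, so that the order of the groups rests on few reads and on the scaling of libraries. SW1 fish 1 was the highest of the 9 fish in 5 of the 8 contigs. Receptor 3 had 2 contigs, and in the larger of them, contig 30742, FMC fish 3 reached 8.08 CPM against 2.81 to 6.04 CPM in the other 8 fish.

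Several members had 1 fish far from the rest. Among 97 members with at least 100 counts in all, FMC fish 2 was at or above 2 times the median of the other 8 fish in 9 and at or below 1/2 of it in 8, while over all contigs with as many counts this held for 6.17% and 10.7%. SW1 fish 2 was high in 3 and low in 16 (3.66% and 9.72% of all contigs), and SW1 fish 1 was high in 6 and low in 5 (4.07% and 9.78%). Each SW2 fish was high in 0 to 3 members and low in 0 to 1 (1.05% to 1.43% and 2.35% to 4.74% of all contigs). SW1 fish 1 had the highest value of the 9 fish in 28 of 148 members (18.9%, against 14.1% of all contigs) and in 12 of 36 thrombocyte receptors. With the proteinase-activated receptors set aside, it was the highest in 5 of 20 thrombocyte receptor contigs. SW1 fish 2 had the lowest value in 44 members (29.7%, against 20.1% of all contigs).

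The members in which FMC fish 2 stood highest above the other fish were glycoprotein IX, tissue-type plasminogen activator, glycoprotein Ib beta and thrombospondin-2. Hemoglobin contigs summed to 25151 CPM in that fish, to 5967 CPM in SW1 fish 1 and to between 1456 and 3065 CPM in the other 7 fish. The whole erythroid list (12 contigs of hemoglobin, erythroid 5-aminolevulinate synthase and band 3) ranged from 2451 to 3700.5 CPM in SW2 fish, from 2049 to 7459 CPM in SW1 fish and from 2286 to 30396 CPM in FMC fish. The part of erythroid cells in the values of these members was not tested. Integrin beta-3 contig 12650 stood at 47.2 CPM in FMC fish 2, near the middle of the 9 fish.

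**Figure D3:**
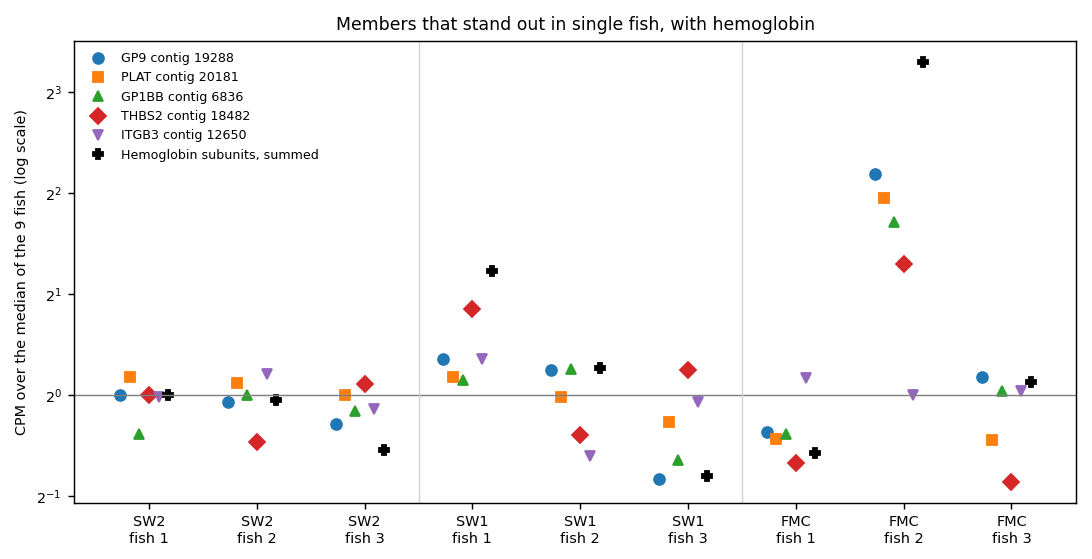
Level of 5 member contigs and of the summed hemoglobin contigs in each of the 9 fish (x axis), as CPM divided by the median of the 9 fish (y axis, log scale). Points are single values without error. FMC fish 2 is high in glycoprotein IX (GP9, 31.3 CPM), tissue-type plasminogen activator (PLAT, 185 CPM), glycoprotein Ib beta (GP1BB, 91.2 CPM), thrombospondin-2 (THBS2, 13.1 CPM) and hemoglobin, while integrin beta-3 (ITGB3, 47.2 CPM) is not.

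The clotting cascade was read through 18 contigs. The A chain of factor XIII, the fibrin cross-linking enzyme that platelets and macrophages store in mammals, was the member with the most counts (26323). It had 232, 311 and 247 CPM in SW2 fish, 302, 251 and 326 CPM in SW1 fish and 259, 273 and 360.4 CPM in FMC fish, and the groups overlapped. The log2 fold change was −0.18 (SE 0.22, adjusted p = 0.949) in SW2 vs. FMC and −0.03 (SE 0.32, adjusted p = 1.00) in SW1 vs. FMC.

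Factor VIII, the cofactor that speeds up activation of factor X and that endothelial cells make, was read through 3 contigs. Contig 4655 had 50.7, 55.3 and 46.2 CPM in SW2 fish, 52.2, 51.2 and 43.9 CPM in SW1 fish and 37.2, 39.4 and 35.8 CPM in FMC fish. All 6 seaweed fish were above all 3 FMC fish, with a log2 fold change of 0.41 (SE 0.21, unadjusted p = 0.066, adjusted p = 1.00) for both seaweeds vs. FMC. The second contig, 24210, had 19.6, 28.9 and 16.6 CPM in SW2 fish, 25.5, 9.63 and 11.6 CPM in SW1 fish and 22.4, 17.9 and 10.7 CPM in FMC fish, which overlapped.

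Tissue factor, the cell-surface protein that starts clotting, had 4 contigs, all with a log2 fold change above 0 for both seaweeds vs. FMC (0.18 to 0.38, with 47.9% of all contigs above 0). Summed, it stood at 25.8, 33.6 and 29.6 CPM in SW2 fish, 27.9, 29.8 and 32.7 CPM in SW1 fish and 22.8, 28.0 and 22.0 CPM in FMC fish. FMC fish 2 lay inside the seaweed range and the other 2 FMC fish below it, and the summed log2 fold change was 0.30 (SE 0.22, adjusted p = 1.00). Its smallest contig, 33193 with 81 counts, had 1.14, 1.17 and 1.71 CPM in SW2 fish and 0.892, 0.134 and 0.523 CPM in SW1 fish, and its log2 fold change was 1.23 (SE 0.51, unadjusted p = 0.029, adjusted p = 0.858) in SW2 vs. SW1. In 1 other tissue factor contig all SW2 fish were below all SW1 fish (6.9% of all contigs). Summed over the 4 contigs, the log2 fold change of SW2 vs. SW1 was −0.01 (SE 0.25, adjusted p = 0.998).

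Factor X, prothrombin and factor IX, best known as liver products, overlapped between the diets. Factor X, the enzyme that makes thrombin from prothrombin, summed to 14.3, 16.2 and 14.5 CPM in SW2 fish, 16.7, 13.4 and 10.3 CPM in SW1 fish and 9.97, 16.9 and 11.1 CPM in FMC fish over 4 contigs. Prothrombin, the precursor of thrombin, had 3 contigs that summed to between 0.936 and 3.12 CPM over the 9 fish, and factor IX, the enzyme that works with factor VIII, had 1 contig between 1.05 and 3.23 CPM. MCFD2, a protein that in mammals helps factors V and VIII out of the endoplasmic reticulum, had the lowest p of this role in SW2 vs. FMC, through contig 34277 at 3.43, 3.95 and 4.72 CPM in SW2 fish, 1.85, 5.08 and 3.48 CPM in SW1 fish and 2.24, 0.809 and 2.80 CPM in FMC fish. Its log2 fold change was 1.03 (SE 0.39, unadjusted p = 0.024, adjusted p = 0.819), and FMC fish 2 was the lowest fish. The larger MCFD2 contig, 34276, gave no such order, with 7.46 to 10.8 CPM in SW2 fish, 10.4 to 14.0 CPM in SW1 fish and 10.3 to 11.1 CPM in FMC fish.

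**Figure D4:**
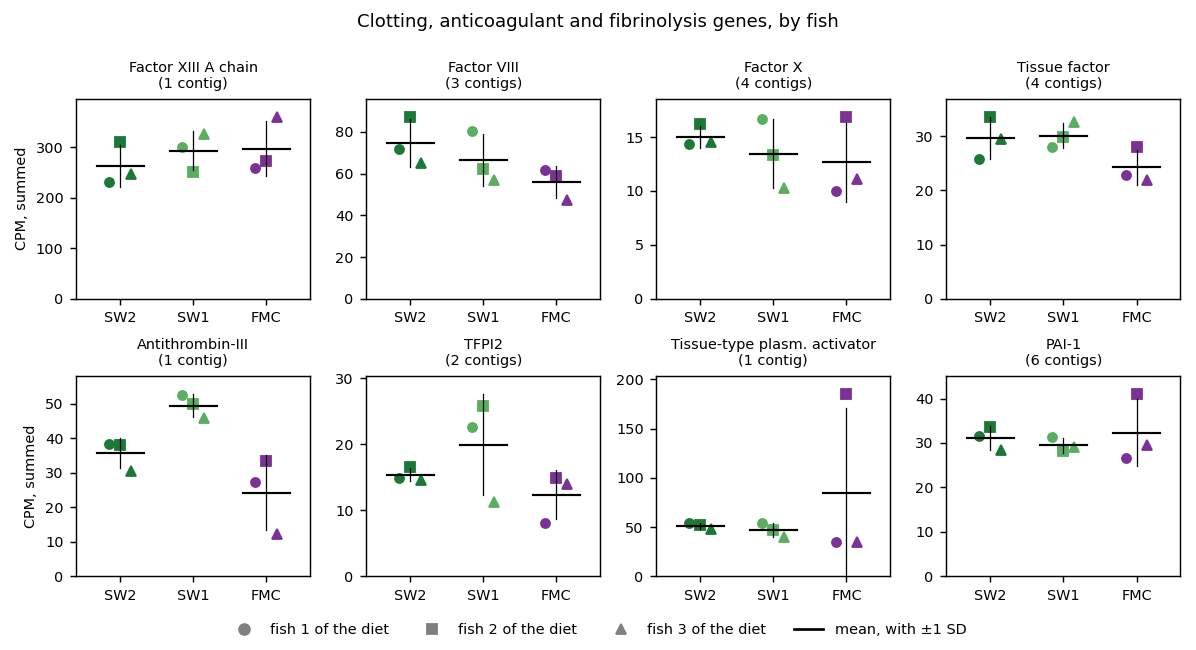
Level of 8 genes of clotting, of its inhibition and of fibrinolysis in CPM, summed over the contigs of each gene (y axis, from 0, with a scale of its own in each panel), in the 3 fish of each diet (x axis). Points are fish and bars are the mean with 1 SD. Antithrombin-III runs from 45.8 to 52.4 CPM in SW1 fish and from 12.1 to 33.3 CPM in FMC fish, and tissue-type plasminogen activator shows FMC fish 2 at 185 CPM.

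Anticoagulants had 3 contigs. Antithrombin-III, the plasma serpin that inactivates thrombin and factor Xa, had 38.3, 38.1 and 30.6 CPM in SW2 fish, 52.4, 49.9 and 45.8 CPM in SW1 fish and 27.2, 33.3 and 12.1 CPM in FMC fish. Every SW1 fish was above every SW2 and every FMC fish, and FMC fish 3 was the lowest by far. The log2 fold change was 1.02 (SE 0.38, unadjusted p = 0.021, adjusted p = 1.00) in SW1 vs. FMC and 0.56 (SE 0.33, adjusted p = 0.871) in SW2 vs. FMC. It stayed between 0.69, without FMC fish 3, and 1.32 when single fish were left out of SW1 vs. FMC. Antithrombin is best known as a liver product, and 10 contigs of hepatocyte markers (serotransferrin, apolipoprotein A-I, haptoglobin and vitellogenin) summed to 228 to 433 CPM in SW2 fish, 161 to 313 CPM in SW1 fish and 231 to 278 CPM in FMC fish, most of it serotransferrin. Haptoglobin alone ran from 0.755 to 20.5 CPM over the 9 fish. Serum albumin, hemopexin, apolipoprotein B, alpha-2-HS-glycoprotein and liver fatty acid-binding protein were also sought by name. None of these names had a contig with at least 20 counts. The part of liver-type cells in the antithrombin values was not tested.

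Tissue factor pathway inhibitor 2, a protease inhibitor of plasmin and of the tissue factor complex in mammals, had 2 contigs. Contig 10263 had 11.5, 12.6 and 10.5 CPM in SW2 fish, 20.3, 23.7 and 8.28 CPM in SW1 fish and 5.82, 11.8 and 9.53 CPM in FMC fish. Of the SW1 fish, 2 were above all others and the third lay inside the FMC range, and the log2 fold change was 0.93 (SE 0.42, unadjusted p = 0.047, adjusted p = 1.00) in SW1 vs. FMC. Contig 47049 went the other way between the seaweeds, with 3.43, 3.95 and 4.11 CPM in SW2 fish, 2.40, 2.14 and 3.05 CPM in SW1 fish and 2.33, 3.12 and 4.49 CPM in FMC fish, and a log2 fold change of 0.59 (SE 0.32, adjusted p = 0.878) in SW2 vs. SW1.

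Fibrinolysis had 9 contigs, and no contig was named for plasminogen itself. Tissue-type plasminogen activator, the protease that turns plasminogen into plasmin, had 54.1, 51.9 and 47.8 CPM in SW2 fish, 53.9, 47.1 and 39.6 CPM in SW1 fish and 35.2, 185 and 35.1 CPM in FMC fish. The seaweed fish were all above FMC fish 1 and 3 and all far below FMC fish 2, so that the sign of the difference turned on that fish. The log2 fold change for both seaweeds vs. FMC was −0.79 (SE 0.42, adjusted p = 1.00) with all fish and 0.48 (unadjusted p = 0.071) without FMC fish 2.

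Plasminogen activator inhibitor 1, which blocks that protease, had 6 contigs that summed to 31.5, 33.7 and 28.4 CPM in SW2 fish, 31.3, 28.1 and 29.1 CPM in SW1 fish and 26.5, 40.9 and 29.5 CPM in FMC fish. FMC fish 2 was again the highest and the other fish overlapped, with a summed log2 fold change of −0.09 (SE 0.22, adjusted p = 1.00) for both seaweeds vs. FMC. A related serpin, described as clade E and plasminogen activator inhibitor type 1-like, ran lower in FMC fish 2 (17.8 CPM) than in FMC fish 1 and 3 (36.6 and 31.4 CPM). It had 16.9, 22.0 and 16.1 CPM in SW2 fish and 13, 30.1 and 31.1 CPM in SW1 fish, and its log2 fold change was −0.64 (SE 0.29, unadjusted p = 0.045, adjusted p = 0.823) in SW2 vs. FMC and −0.89 without FMC fish 2. The plasminogen receptor PLGRKT had 17.5 to 21.1 CPM in SW2 fish, 12.8 to 28.3 CPM in SW1 fish and 17.4 to 19.5 CPM in FMC fish.

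No contig was named for a fibrinogen chain. Of the 23 contigs of clot substrate and adhesion all but 4 were thrombospondins, matrix proteins that platelet granules hold in mammals. Thrombospondin-1 had 9 contigs, and its most counted, contig 538, had 14.8, 9.70 and 17.3 CPM in SW2 fish, 8.92, 8.42 and 12.1 CPM in SW1 fish and 9.47, 6.36 and 10.1 CPM in FMC fish. SW2 fish 1 and 3 were the highest of the 9 fish and SW2 fish 2 lay inside the FMC range, with a log2 fold change of 0.69 (SE 0.29, unadjusted p = 0.034, adjusted p = 0.822) in SW2 vs. FMC. All 9 contigs had an estimate above 0 in SW1 vs. FMC (median 0.18, with 48.3% of all contigs above 0) and 6 did in SW2 vs. FMC (median 0.33, with 50.3%).

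Thrombospondin-4, a member of the family tied to tendon and vessel wall in mammals, had 27.8, 52.8 and 27.5 CPM in SW2 fish, 12.4, 26.3 and 27.6 CPM in SW1 fish and 25.8, 11.7 and 23.8 CPM in FMC fish. SW2 fish 2 was 2.02 times the median of the other fish, and SW1 fish 1 and FMC fish 2 were the lowest. Its log2 fold change was 0.81 (SE 0.35, unadjusted p = 0.038, adjusted p = 0.823) in SW2 vs. FMC and 0.44 without SW2 fish 2. Thrombospondin-2 was high in FMC fish 2 and SW1 fish 1, since its contig 18482 had 13.1 and 9.54 CPM there against 2.92 to 6.27 CPM in the other 7 fish.

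Von Willebrand factor, the adhesive protein of vessel wall and platelets, had few counts, with 4 contigs of 33 to 141 counts. They summed to 3.94, 2.77 and 2.11 CPM in SW2 fish, 3.36, 1.6 and 2.53 CPM in SW1 fish and 2.91, 5.32 and 3.03 CPM in FMC fish. The groups overlapped, FMC fish 2 was the highest, and the summed log2 fold change of −0.45 (SE 0.32, adjusted p = 1.00) for both seaweeds vs. FMC did not pass the threshold.

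The 59 name-only members belong to other processes. The nucleic acid binding protein SERBP1, named after an inhibitor whose mRNA it binds, had 9 contigs that summed to 675 to 886 CPM in SW2 fish, 564 to 1061 CPM in SW1 fish and 601 to 1065 CPM in FMC fish. SW1 fish 1 and FMC fish 2 were the lowest in this sum, as they were in contig 455, at 79.6 and 89.7 CPM against 151 to 308 CPM in the other 7 fish. SVEP1, a large extracellular matrix protein with a von Willebrand domain, had 20 contigs, of which 15 had an estimate above 0 in SW2 vs. FMC (median 0.52, with 50.3% of all contigs above 0). At an unadjusted p under 0.05, 4 of them were higher in SW2 fish and 1 was lower (2.39% and 3.63% of all contigs).

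The 4 higher SVEP1 contigs held few reads, between 48 and 62 counts each. Contig 79157 had 48 counts in all and 0.830, 0.746 and 1.2 CPM in SW2 fish, 0.618, 0.134 and 0.348 CPM in SW1 fish and 0.166, 0.462 and 0.112 CPM in FMC fish, with a log2 fold change of 1.90 (SE 0.61, unadjusted p = 0.0094, adjusted p = 0.816) in SW2 vs. FMC. Summed over its 20 contigs, SVEP1 averaged 132 ± 6.38 CPM in SW2 fish, 135 ± 45.3 CPM in SW1 fish and 118 ± 15.6 CPM in FMC fish (SD, n = 3 each), a difference within the spread between fish. Other proteins with a von Willebrand factor A domain had 16 contigs, 15 of them above 0 in SW2 vs. SW1 (median 0.33, with 49.5% of all contigs above 0) and 4 of 16 above 0 in SW1 vs. FMC (median −0.19, with 48.3%). These comparisons share the SW1 fish.

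Thrombocyte genes were also compared with each other across the 9 fish, as markers of 1 cell type. The log2 CPM values (prior count 2) of the most counted contig of integrin alpha-IIb, integrin beta-3, the platelet glycoproteins (Ib beta), the factor XIII A chain and a gene not reported here gave 10 pairs. No pair passed an adjusted p of 0.05 in an exact permutation test. Of the pairs given here the closest was alpha-IIb with beta-3 (Pearson r = 0.592, two-sided exact permutation p = 0.095, adjusted p = 0.474, and Spearman rho = 0.417, exact p = 0.270, adjusted p = 0.899).

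The integrins had r = 0.508 (exact permutation p = 0.241) without FMC fish 3 and SW1 fish 2, the 2 fish farthest from the median of alpha-IIb. Within diets, after the mean of each diet was subtracted, their r was 0.711 (exact permutation p = 0.134 over 216 orders within diets). Factor XIII had r = 0.378 with beta-3, −0.133 with alpha-IIb and −0.042 with glycoprotein Ib beta. Glycoprotein Ib beta had r = −0.059 with alpha-IIb and r = −0.058 with beta-3.

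Other genes of the thrombocyte lineage and of clotting were counted as lists. Of 67 contigs of thrombocyte signaling and granules (such as kindlin-3, talin-1, SYK, pleckstrin and P-selectin), 0 passed the adjusted threshold in any comparison, and 44, 40, 36 and 44 had an estimate above 0 in SW1 vs. FMC, SW2 vs. FMC, SW2 vs. SW1 and both seaweeds vs. FMC. Their medians were 0.07, 0.06, 0.02 and 0.09 on the log2 scale. Of all contigs, 48.3%, 50.3%, 49.5% and 47.9% were above 0 in the same comparisons. Summed over the list, the level was 2316 to 2552 CPM in SW2 fish, 2133 to 2319 CPM in SW1 fish and 1861 to 2418 CPM in FMC fish, with FMC fish 2 the lowest of all.

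Of 33 contigs of thrombocyte transcription factors, 0 passed the adjusted threshold, with medians of 0.02, −0.09, −0.17 and −0.06 in the same 4 comparisons. NF-E2 and GATA-binding factor 1 were also sought by name for this list, but the levels below do not include them. Of the genes below, FLI1 and TAL1 had the highest mean levels in every diet. Gfi-1b, a repressor that both the erythroid and the thrombocyte lineage need in mammals, summed to 29.5, 30.4 and 24.8 CPM in SW2 fish, 46.1, 29.3 and 36.6 CPM in SW1 fish and 17, 28.4 and 24.0 CPM in FMC fish. All SW1 fish were above all FMC fish in this sum, while RUNX1 and ZFPM1 had their lowest mean in SW1 fish. RUNX1, a factor of blood stem cells and megakaryocytes in mammals, averaged 31.0 ± 4.03 CPM in SW2 fish, 26.0 ± 7.85 CPM in SW1 fish and 31.3 ± 2.65 CPM in FMC fish (SD, n = 3 each), and ZFPM1, a partner of GATA factors, averaged 5.70 ± 1.00 CPM in SW2 fish, 4.21 ± 2.11 CPM in SW1 fish and 4.53 ± 0.613 CPM in FMC fish. FLI1, which megakaryocytes need in mammals, averaged 266 ± 154 CPM in SW2 fish, 292 ± 62.5 CPM in SW1 fish and 272 ± 75.8 CPM in FMC fish (SD, n = 3 each). TAL1, another factor of both lineages, averaged 219.8 ± 45.7 CPM in SW2 fish, 294 ± 39.2 CPM in SW1 fish and 322 ± 66.7 CPM in FMC fish (SD, n = 3 each), and was the highest in FMC fish 2, at 395 CPM against 180.3 to 321 CPM in the other 8 fish. Of 23 contigs of further regulators of clotting (such as thrombomodulin, annexin A5 and alpha-2-macroglobulin), 0 passed, and 19, 19, 13 and 21 were above 0 in the 4 comparisons (medians 0.23, 0.39, 0.01 and 0.31). The shares of all contigs above 0 were 48.3%, 50.3%, 49.5% and 47.9%.

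The same 13 words found 11 sequences in a second reference, 48223 S. salar sequences from NCBI. Those reported here covered integrin beta-3, glycoprotein V, tissue factor pathway inhibitor 2, SVEP1 and SERBP1, and 0 of 11 passed the adjusted threshold in any comparison. At an unadjusted p under 0.05 there was 1, in SW2 vs. FMC, where 700 of all 22605 sequences tested were lower and 585 higher. It was a sequence of tissue factor pathway inhibitor 2 that was lower in SW2 fish, with 15, 8 and 6 counts in SW2 fish and 22, 18 and 27 counts in FMC fish (log2 fold change −1.12, SE 0.42, adjusted p = 0.861). For SW1 fish the counts were 13, 29 and 9. The other sequence of this inhibitor, with 23 counts in all, had an estimate of 0.82 (SE 0.76, adjusted p = 0.936), and its 2 contigs on the assembled reference had 0.36 for contig 10263 and 0.22 for contig 47049 in the same comparison.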

How the data were processed

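Head kidney RNA of 9 LPS-challenged salmon was sequenced from TruSeq libraries, a kit that does not mark strand, so reads from a gene and an antisense partner cannot be told apart. The authors aligned reads with TopHat2 2.0.5 to contigs they had assembled with CLC bio and named by BLAST against protein and fish mRNA databases and the zebrafish genome, removed secondary alignments with SAMtools 0.1.18, counted with HTSeq 0.5.3p9 and deposited raw counts per contig and fish. A second set of deposited counts used 48223 S. salar sequences from NCBI. The deposited fold changes and p-values come from the authors' own comparisons and were not used. Gene names are those closest matches, many to other species, and contig lengths are not given in the sources used here, so levels were not compared between genes.

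The members, roles and lists were chosen with earlier results of these data known. edgeR 4.0.16 was run on contigs that reached 10 counts summed over the fish it used (R 4.3.3, TMM scaling, quasi-likelihood test, Benjamini-Hochberg adjustment over all contigs tested, threshold 0.05). Each seaweed was set against FMC in a fit of those 6 fish, and the remaining comparisons used all 9. SE is the log2 fold change divided by the root of F. Alternatives were DESeq2 1.42.0, upper-quartile scaling, other filters, each fish left out, a replicate block, 1 fit of 9 fish, counts summed per gene and the NCBI reference. The edgeR script was tested on simulated data. Total counts of 8259299 to 12228633 per fish set the precision, and contigs under about 100 counts in all carry the widest errors. The names rule took members past the adjusted threshold, the smallest p of each comparison and role, and the 3 highest mean CPM of each role. For phospholipase C gamma-2 the wording "phosphodiesterase gamma-2" was added as its UniProt name. One gene of the set is not reported here, though its contigs stay in the counts over all members.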

Additional observations from a re-analysis of the deposited data

Results flagged for a closer look

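One member lay on opposite sides of FMC in the 2 seaweed groups. Contig 44725, a protein with a von Willebrand factor A domain and a name-only member, had 1.04, 1.17 and 1.2 CPM in SW2 fish, 0.206, 0.535 and 0.697 CPM in SW1 fish and 0.914, 0.809 and 1.01 CPM in FMC fish. Every SW2 fish was above and every SW1 fish below every FMC fish. Over all contigs, 5.69% had all SW2 fish above all FMC fish and 2.62% had all SW1 fish below them. The share of all contigs with both was not counted, so this member cannot be set against it. The log2 fold change of SW2 vs. SW1 was 1.28 (SE 0.49, unadjusted p = 0.020, adjusted p = 0.858 in edgeR), on 75 counts in all, and it did not pass the adjusted threshold.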

How the results depend on the processing

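The count of members called stayed at 0 in each comparison that an alternative was run for. DESeq2, upper-quartile scaling, no filter, at least 10 counts in 3 fish, each fish of the comparison left out, the NCBI reference and counts summed per gene were run for all 4. The fit of all 9 fish was an alternative for each seaweed against FMC, and the fit without FMC replicate 2 and SW1 replicate 1 was run for all but SW2 vs. FMC. That fit and the sums per gene were chosen after seeing the data. Tissue-type plasminogen activator contig 20181 changed sign for both seaweeds vs. FMC, with a log2 fold change of 0.48 without FMC replicate 2 and 0.43 without FMC replicate 2 and SW1 replicate 1, against −0.79 with all fish. Its range with single fish left out was −1.17 to 0.48. With single fish left out, the numbers of members that passed an unadjusted p of 0.05 above and below 0 ranged over 1 to 5 and 0 to 3 in SW1 vs. FMC, 8 to 18 and 1 to 8 in SW2 vs. FMC, 2 to 14 and 1 to 4 in SW2 vs. SW1, and 3 to 9 and 1 to 6 for both seaweeds vs. FMC. The numbers over all contigs moved as well, with 86447 to 87598 contigs tested. They were 719 to 1656 and 464 to 1533 in SW1 vs. FMC, and 1373 to 3755 and 1633 to 5568 in SW2 vs. FMC. In SW2 vs. SW1 they were 1159 to 3563 and 1804 to 3898, and for both seaweeds 959 to 1992 and 1157 to 3276. Without FMC replicate 2 and SW1 replicate 1, the numbers of members were 8 and 4 in SW1 vs. FMC, 20 and 4 in SW2 vs. SW1, and 13 and 3 for both seaweeds vs. FMC. Over all contigs, that fit gave 2238 and 1612 of 84389 in SW1 vs. FMC. In SW2 vs. SW1 it gave 5139 and 5816 of 87446, against 1799 and 3280 of 87598 with all fish. For both seaweeds vs. FMC it gave 2390 and 1600 of 87446.

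No pairing of the fish by replicate number was evident. The 9 correlations between same-numbered fish of different diets ran from −0.424 to 0.303, with 2 above 0.1. With the replicate block 0 members were called in each comparison.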

Other observations

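Interrenal genes, which make cortisol in the head kidney, had an estimate above 0 in SW2 vs. FMC in all 8 contigs (median log2 fold change 1.44, with 50.3% of all contigs above 0), with 5 at an unadjusted p under 0.05 (2.39% of all contigs in this direction) and 0 after adjustment in edgeR. Summed, they had 994, 564 and 1249.6 CPM in SW2 fish, 328, 621 and 728 CPM in SW1 fish and 155, 682 and 408 CPM in FMC fish, which overlapped. Macrophage markers had 13 of 19 contigs above 0 in SW2 vs. FMC and B cell markers 15 of 22, with 0 called after adjustment in either list, and 4 and 2 higher at an unadjusted p under 0.05 (2.39% of all contigs).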
